A study of Bos taurus with 40 samples.

Results

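The cholesterol synthesis genes examined here are 7 enzymes of the pathway that builds cholesterol from acetyl-CoA: HMGCS1, IDI1, FDFT1, SQLE, LSS, CYP51A1 and DHCR7. They were chosen by gene symbol, as the rows of the count tables that carry these names, and all 7 were among the 13148 genes that had a read in at least 1 library, of 13570 genes counted. The pathway first makes mevalonate and isoprenoid units, joins these into squalene, and then closes and trims the sterol ring. Transcription of its genes is controlled together by the factor SREBP2, which is released to the nucleus when the sterol content of the endoplasmic reticulum falls. Liver is a main site of cholesterol synthesis and the organ that turns cholesterol into bile acids.

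RNA was sequenced from liver, abdominal fat, longissimus dorsi muscle and the pituitary gland of 10 Korean cattle, 5 cows and 5 bulls, all slaughtered at an age above 22 months. Each animal gave 1 library per tissue, 40 in all, and no animal was given a treatment that the labels name. Cows and bulls are numbered separately, so that cow 4 is the same animal in every tissue and is not paired with bull 4. Libraries held 5173092 to 19165864 reads on genes (median 10005607). Levels are given as CPM, the reads of a gene relative to the total of its library, scaled with TMM factors, which correct for the make-up of a library. CPM does not correct for gene length, so levels are compared between samples and not between genes.

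The tissue labels were checked against marker genes. The summed level of 5 liver markers (ALB, TTR, FGB, AHSG and SERPINC1) was 113802 to 283373 CPM in the livers and at most 160.2 CPM in any library of the other tissues. The muscle, pituitary and fat markers were likewise highest in their own tissue in every library. One label was contradicted by genes of the sex chromosomes. The library labelled as the liver of bull 3 held 0 reads on the Y-linked genes USP9Y, DDX3Y and ZFY, which allows up to 0.483 CPM, whereas USP9Y stood at 45.9 to 73.6 CPM in the livers of the other bulls. Its level of XIST, the RNA that silences 1 X chromosome in females, was 1401 CPM, within the 681 to 2179 CPM of the cows' livers and far from the 0.283 to 0.936 CPM of the other bulls' livers. Its profile was closest to that of cow 4's liver: the pair had r = 0.993 across genes, the highest of 45 liver pairs. The chi-square per degree of freedom between their counts was 15.0, above sampling noise, against 43.9 for the next closest pair. They were therefore kept as separate libraries, but whether both came from the same animal was not tested. The libraries of cow 4's liver and of the liver labelled bull 3 also had the highest levels of the genes described here. Differences of liver from other tissues and between the sexes were therefore also tested without one or both. Since the liver labelled bull 3 may not come from that animal, counts of animals whose liver was higher than another of their tissues cover the other 9 animals. Cow 4's liver was singled out after its values were seen. In whole tissue, more cells of a type and more RNA per cell cannot be told apart.

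**Figure D1:**
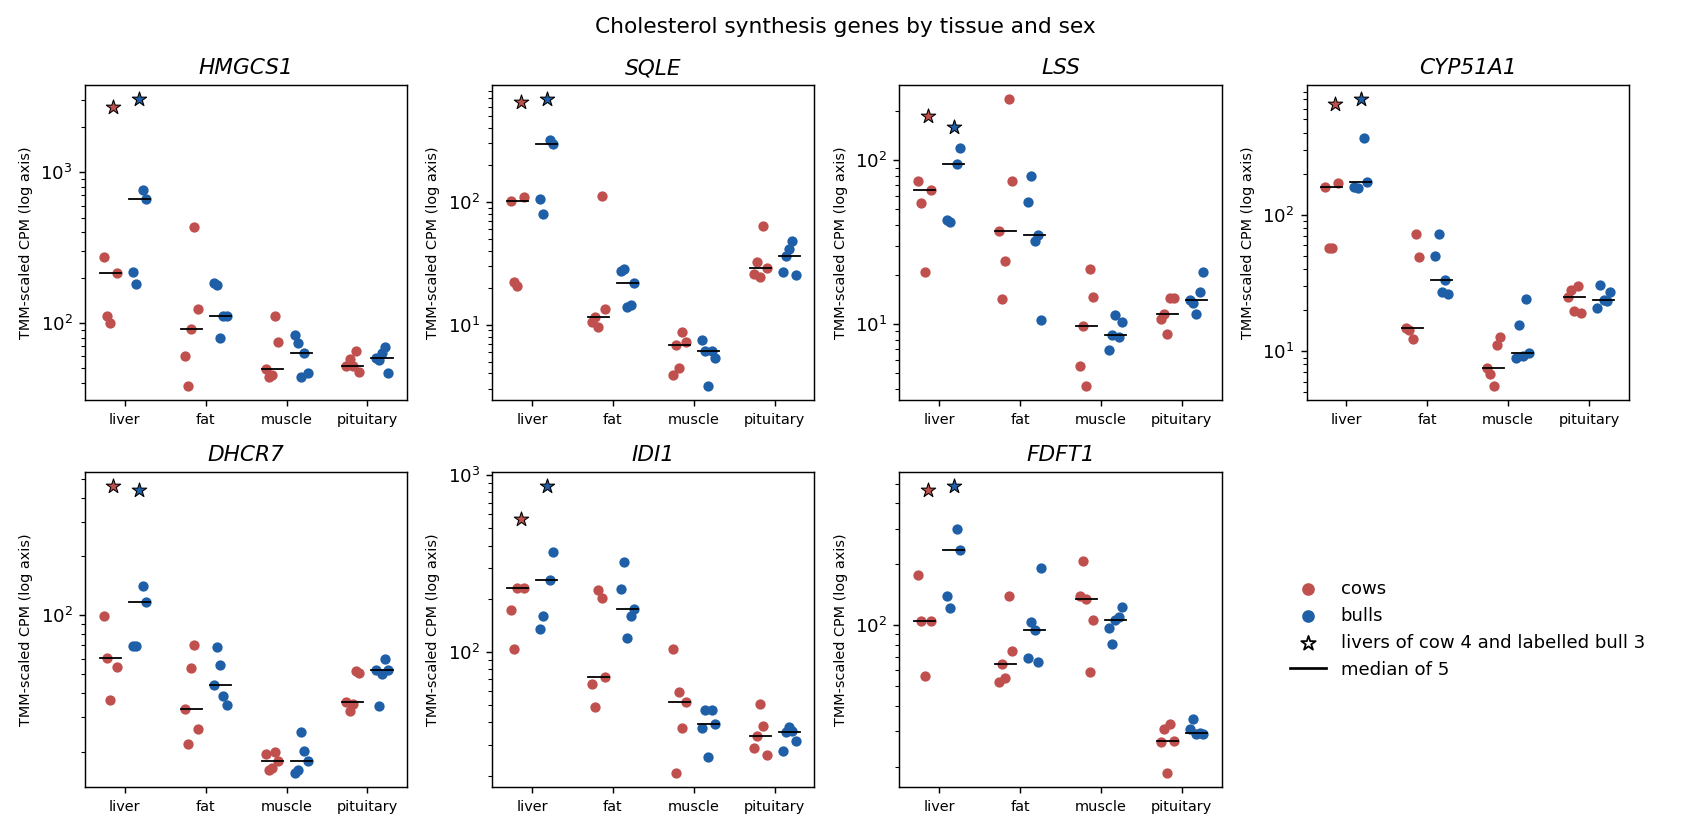
TMM-scaled CPM (log axis) of the 7 genes in each of the 40 libraries, by tissue, with cows in red, bulls in blue and the median of each group of 5 as a line. Stars mark the liver of cow 4 and the library labelled as the liver of bull 3. These are the highest 2 livers for every gene. Within each sex, the liver median lies above those of the other tissues, except for FDFT1 in cows. There the median is 105 CPM in liver and 135 CPM in muscle.

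Expression was highest in liver for each of the 7 genes by the mean over animals, and the second tissue in that order differed from gene to gene. Against abdominal fat, 6 of 7 genes were higher in liver (29.6% of all genes tested were higher in liver and 35.2% lower). Against muscle, 7 of 7 were higher in liver (28.7% of all genes higher, 34.1% lower), and against pituitary, 7 of 7 (29.4% higher, 35.9% lower). The test was the quasi-likelihood test of edgeR over the 40 libraries, with the animal as a block and Benjamini-Hochberg adjustment over all genes. Without the library labelled as bull 3's liver, the liver was higher for 5 of 7 genes against fat, 6 against muscle and 7 against pituitary, and the counts were the same without both that library and cow 4's liver.

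HMGCS1 encodes the cytosolic synthase that makes HMG-CoA, early in the pathway. Its level in the livers of cows 1 to 5 was 272, 111, 100, 2708 and 216 CPM. In the livers labelled bulls 1 to 5 it was 219, 182, 3039, 759 and 663 CPM. Cow 4's liver and the library labelled bull 3, whose sex label was in doubt, lay far above the other 8, whose median was 217 CPM. The sexes as labelled overlapped. In fat the cows had 60.6, 38.3, 90.9, 435 and 123 CPM and the bulls 184, 179, 80.0, 111 and 111 CPM, again with cow 4 on top. The range was 43.6 to 111 CPM in muscle and 46.8 to 69.5 CPM in pituitary, so the spread between animals was much narrower in these tissues. Over the 10 libraries of a tissue the coefficient of variation was 134% for liver, 80.0% for fat, 35.2% for muscle and 13.4% for pituitary. It was 80.0% in liver without the highest pair of libraries and 45.2% in fat without cow 4. HMGCS1 was higher in liver than in each other tissue in 9 of 9 animals. The log2 difference was 2.10 ± 0.36 (SE) against fat (adjusted p = 3.45e-05), 3.04 ± 0.36 against muscle (1.11e-07) and 3.12 ± 0.36 against pituitary (6.73e-08) by edgeR's quasi-likelihood test. Without both high livers these differences were 1.30 ± 0.29, 2.28 ± 0.29 and 2.33 ± 0.29, and all passed (highest adjusted p = 0.00043, edgeR).

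IDI1, the isomerase that interconverts the pair of five-carbon building blocks, had 172, 104, 231, 567 and 229 CPM in the cows' livers. The livers labelled as bulls had 135, 160, 869, 254 and 366 CPM. Cow 4 and the library labelled bull 3 were highest here too, but the other 8 livers (104 to 366 CPM) overlapped with fat. In fat the level ranged from 49.0 to 322 CPM, with a median of 168 CPM, the highest being bull 2. IDI1 was higher in liver than in fat in 7 of 9 animals, by 0.87 ± 0.30 on the log2 scale (adjusted p = 0.0168, edgeR). That call was lost without the library labelled bull 3 (0.58 ± 0.28, adjusted p = 0.0746, edgeR) and without both high livers (0.38 ± 0.28, adjusted p = 0.25, edgeR). Muscle (20.8 to 104 CPM) and pituitary (26.3 to 51.0 CPM) were lower than liver in 9 of 9 animals, by log2 differences of 2.58 ± 0.30 and 2.999 ± 0.30 from liver. Muscle and pituitary did not differ beyond their spread for this gene (log2 difference 0.42 ± 0.30, adjusted p = 0.237, edgeR).

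FDFT1 encodes squalene synthase, the first enzyme committed to sterols. The cows' livers had 177, 105, 55.8, 467 and 104 CPM, and the livers labelled as bulls 139, 122, 488, 298 and 236 CPM. FDFT1 differed from the other members in muscle. Its muscle level was 139, 208, 135, 59.0 and 106 CPM in the cows and 97.1, 80.7, 106, 109 and 123 CPM in the bulls, and cow 4, the second highest liver, was the lowest muscle. The liver was higher than muscle in 6 of 9 animals, by a log2 difference of 0.70 ± 0.27 (adjusted p = 0.0294, edgeR). It no longer passed without the library labelled bull 3 (0.51 ± 0.26, adjusted p = 0.101, edgeR) or without both high livers (0.31 ± 0.25, adjusted p = 0.289, edgeR). Fat (52.2 to 191 CPM) was not separated from muscle, at a log2 difference of −0.49 ± 0.27 (95% interval −1.01 to 0.04, adjusted p = 0.123, edgeR). Muscle was above pituitary (18.7 to 34.5 CPM) by 2.07 ± 0.27 on the log2 scale (adjusted p = 5.93e-08, edgeR).

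SQLE, the squalene epoxidase that introduces the first oxygen of the sterol, had 101, 22.2, 20.7, 656 and 111 CPM in the cows' livers. The livers labelled as bulls had 106, 79.1, 688, 319 and 295 CPM. The 8 livers other than cow 4's and the one labelled bull 3 still spanned 20.7 to 319 CPM, the widest relative range of any member. In fat, the cows had 10.5, 11.5, 9.59, 112 and 13.5 CPM, and the bulls had 27.1, 28.3, 13.8, 14.6 and 21.8 CPM. Apart from cow 4, every cow's fat lay below every bull's fat for this gene. Muscle was lowest, at 3.17 to 8.72 CPM. Pituitary (24.5 to 63.3 CPM) was the second tissue, above muscle by 2.48 ± 0.36 on the log2 scale (adjusted p = 7.57e-07, edgeR), while its difference from fat missed the threshold (0.78 ± 0.35 in favour of pituitary, adjusted p = 0.0582, edgeR); without the library labelled as bull 3's liver it passed, at 0.83 ± 0.31 (adjusted p = 0.0219). The liver was higher than fat by 3.08 ± 0.35 and than muscle by 4.78 ± 0.36, in 9 of 9 animals each, and higher than pituitary by 2.30 ± 0.35, in 7 of 9 animals (adjusted p = 2.17e-08, 5.91e-12 and 2.63e-06, edgeR). The exceptions were cows 2 and 3, whose livers had less SQLE than their pituitaries.

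LSS encodes lanosterol synthase, which closes the ring. The cows' livers had 74.1, 54.3, 20.9, 185 and 65.3 CPM, and the livers labelled as bulls had 42.9, 42.1, 160, 95.2 and 119 CPM. In fat it was 37.1, 14.1, 24.1, 235 and 74.0 CPM in the cows and 55.4, 79.6, 32.2, 34.8 and 10.6 CPM in the bulls. Cow 4's fat was thus above every liver for LSS. Liver exceeded fat in only 4 of 9 animals, and the log2 difference of 0.68 ± 0.29 (95% interval 0.10 to 1.25) missed the threshold after adjustment (adjusted p = 0.0513, edgeR). Its direction turned to −0.11 when libraries were scaled by their size alone, which moved the median of all genes by −0.72. Liver was above muscle (4.19 to 21.7 CPM) and pituitary (8.70 to 20.8 CPM) in 9 of 9 animals, by 3.04 ± 0.30 and 2.47 ± 0.29 on the log2 scale.

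CYP51A1, the lanosterol demethylase, had 160, 57.6, 57.5, 647 and 171 CPM in the cows' livers and 159, 156, 702, 365 and 174 CPM in the livers labelled as bulls. Of the livers, 6 of 10 lay between 156 and 365 CPM, and cows 2 and 3 were lowest, as for SQLE. Fat ranged from 12.3 to 72.6 CPM, muscle from 5.58 to 24.0 CPM and pituitary from 19.1 to 30.7 CPM. Liver was higher than each of these tissues in 9 of 9 animals. The log2 differences were 2.70 ± 0.29 against fat, 4.34 ± 0.29 against muscle and 3.03 ± 0.29 against pituitary (adjusted p = 2.69e-09, 1.16e-13 and 2.30e-10, edgeR), and 2.19 ± 0.26, 3.86 ± 0.26 and 2.53 ± 0.26 without both high livers. Fat and pituitary did not differ beyond their spread (0.33 ± 0.29, adjusted p = 0.335, edgeR).

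DHCR7, the reductase of the last step to cholesterol, had 98.7, 60.3, 36.6, 459 and 54.4 CPM in the cows' livers and 69.9, 69.6, 439, 142 and 117 CPM in the livers labelled as bulls. The other tissues overlapped with the lower livers: fat had 21.8 to 70.03 CPM and pituitary 32.3 to 59.8 CPM. Muscle had 15.6 to 25.1 CPM, the narrowest relative range of DHCR7 in any tissue, and was the lowest tissue. Liver was above fat in 8 of 9 animals and above muscle and pituitary in 9 of 9, by log2 differences of 1.48 ± 0.26, 2.69 ± 0.26 and 1.39 ± 0.26 (adjusted p = 1.53e-05, 2.60e-10 and 2.98e-05, edgeR). Without both high livers they were 0.92 ± 0.21, 2.16 ± 0.21 and 0.87 ± 0.21, and all passed (highest adjusted p = 0.000316, edgeR). Fat and pituitary did not differ beyond their spread (−0.08 ± 0.26, adjusted p = 0.797, edgeR).

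**Figure D2:**
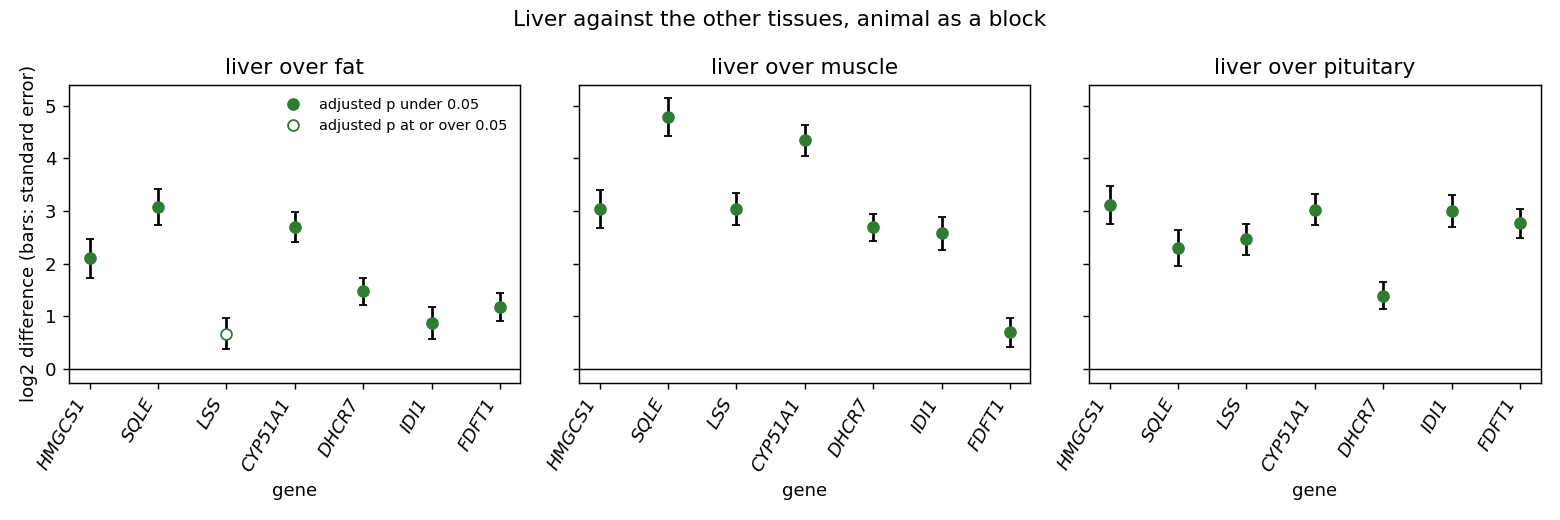
Log2 difference of liver over fat, muscle and pituitary for the 7 genes (edgeR quasi-likelihood fit, animal as a block, 10 animals); bars are standard errors and an open symbol an adjusted p of 0.05 or more. The differences range from 0.68 for LSS over fat, the only open symbol, to 4.78 for SQLE over muscle.

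Among the other tissues, 6 of 7 genes were higher in fat than in muscle, all but FDFT1 (33.2% of all genes higher in fat, 27.4% lower). Against pituitary, 4 of 7 were higher in fat: HMGCS1, IDI1, FDFT1 and LSS, by 1.01 to 2.13 on the log2 scale (31.4% of all genes higher in fat, 34.3% lower). Between muscle and pituitary, FDFT1 was higher in muscle while SQLE, CYP51A1 and DHCR7 were higher in pituitary (31.3% of all genes higher in muscle, 33.7% lower). HMGCS1 was level between these last tissues with TMM scaling (0.08 ± 0.36, adjusted p = 0.881, edgeR), but was lower in muscle by 0.85 on the log2 scale (adjusted p = 0.0459, edgeR) with library sizes alone, a scaling that moved the median of all genes by −0.93.

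Most other enzymes of the pathway were also higher in liver. Of 13 other enzymes, 10 were higher in liver than in fat and 1 lower, 11 were higher than in muscle and none lower, and 11 were higher than in pituitary and 1 lower. For this and the lists below, 29.6% of all genes were higher in liver than in fat and 35.2% lower. Against muscle these shares were 28.7% and 34.1%, and against pituitary 29.4% and 35.9%. MSMO1, a sterol methyl oxidase, was higher in liver than in fat by 2.73 ± 0.31 on the log2 scale, and NSDHL, the sterol dehydrogenase that acts beside it, by 2.06 ± 0.21. GGPS1, which makes a branch product for prenylation, was the one lower in liver, by log2 differences of −0.83 ± 0.17 from fat and −0.67 ± 0.17 from pituitary. The median log2 difference of liver over fat was 1.48 for the 7 genes and 1.52 for the 13 others, against −0.12 for all genes. Of 6 genes that control SREBP, 3 were higher in liver than in fat and 3 lower. SREBF2, which encodes SREBP2, was higher by 1.08 ± 0.20 and INSIG1, the sterol-sensitive retention protein, by 2.10 ± 0.28, while SREBF1, the partner that mainly drives fatty acid genes, was lower, at −1.35 ± 0.25. Of 9 genes of sterol transport and sensing, 1 was higher in liver than in fat and 4 were lower. All 3 bile acid genes (CYP7A1, CYP8B1 and CYP27A1) were higher in liver than in each other tissue.

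The liver of cow 4 and the library labelled as the liver of bull 3 stood apart from the other 8 livers in all 7 genes. Relative to the median of those 8, HMGCS1 was 12.5-fold higher in cow 4 and 13.99-fold in the library labelled bull 3. SQLE was 6.34- and 6.65-fold higher, DHCR7 6.58- and 6.29-fold, and CYP51A1 4.07- and 4.41-fold. The smallest folds were those of FDFT1 (3.58 and 3.74), IDI1 (2.83 and 4.33) and LSS (3.10 and 2.68). These are descriptions of 2 libraries chosen for their values, with no test. For comparison, these libraries were the highest 2 of the 10 livers for 6.94% of the 9930 genes with a mean of at least 1 CPM in liver, and the median fold over all those genes was 0.990 and 0.953.

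The same pattern held for 11 of the 13 other enzymes, from the mevalonate steps (MVK, PMVK and MVD, 1.51- to 2.33-fold) to the sterol steps. MSMO1 was 5.66- and 6.85-fold above the median of the other livers, and FDPS, which makes farnesyl diphosphate, 4.61- and 4.18-fold. The 2 exceptions were GGPS1 and LBR. INSIG1 was 3.71- and 3.73-fold above that median but below the highest of the other livers, bull 5 at 1463 CPM, and SREBF2 was 2.05- and 1.45-fold above it. Among SREBP control genes, 1 of 6 had these livers as its highest 2, among sterol transport and sensing genes 1 of 9 (SCARB1, the HDL receptor, 1.95- and 1.85-fold), and among bile acid genes 0 of 3. Reads on genes (9402070 and 9003570), the share of reads outside genes (41.1% and 39.4%) and the TMM factors (0.758 and 0.689) lay within the range of the other 8 livers. The share of gene reads without a gene name (0.476% and 0.488%) lay just above the other livers' 0.355% to 0.462%. The summed level of 4 leukocyte markers (PTPRC, CD3E, CD68 and LYZ) was 201 and 209 CPM, below the 222 to 637 CPM of the others. The part of these differences in the result was not tested.

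**Figure D3:**
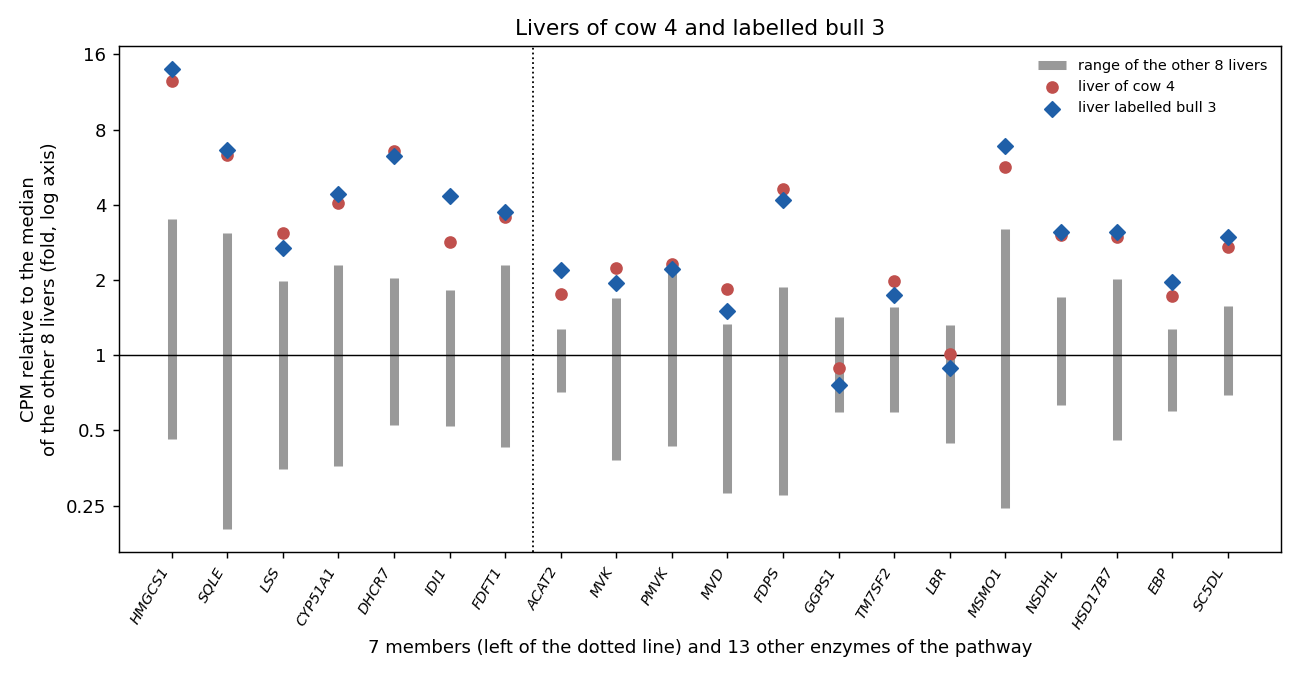
CPM in the liver of cow 4 (circles) and the library labelled as the liver of bull 3 (diamonds) relative to the median of the other 8 livers (fold, log axis), for the 7 genes and 13 other enzymes of the pathway; grey bars give the range of the other 8 livers. Both symbols lie above the grey bar for all 7 genes, up to 13.99-fold for HMGCS1, and within it for GGPS1 and LBR.

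Cow 4 was high for several of these genes outside liver as well. Among the 10 animals it had the highest fat for 4 of 7 genes (HMGCS1, SQLE, LSS and DHCR7), the highest muscle for 3 (HMGCS1, SQLE and LSS) and the highest pituitary for 1 (SQLE, 63.3 CPM). It was the lowest of the 10 in muscle for FDFT1, and ranked 7 of 10 there for IDI1. No share of all genes stands beside these counts, so they are a description only. Cow 4's muscle also held the lowest r across genes of the 45 muscle pairs, 0.910 with cow 1. In bull 3's fat, muscle and pituitary, in which the Y-linked genes were read, HMGCS1 stood at 80.0, 43.6 and 63.6 CPM, at ranks 8, 10 and 3 of the 10 animals, and the highest of the 10 muscles for DHCR7 was that of bull 3 (25.1 CPM).

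The levels of the 7 genes varied together from library to library in liver, and less closely in the other tissues. After the mean of each sex was removed on the log2(CPM + 1) scale, the median Pearson r over the 21 pairs of genes was 0.916 in the 10 livers, and all 21 pairs were above 0.5. In fat the median was 0.642, with 13 pairs above 0.5. In muscle it was −0.04 and in pituitary 0.249, with 4 pairs above 0.5 in each. The pair of HMGCS1 and SQLE was the most tightly joined in both muscle (0.771) and pituitary (0.818), whereas HMGCS1 and FDFT1 moved in opposite directions in muscle (−0.85). The median r between the 7 genes and all other genes was between −0.03 and 0.01 in the 4 tissues. Without both high livers the liver median was 0.778 over 8 livers, with 17 pairs above 0.5. Without cow 4 the fat median was 0.287, with 7 pairs, the muscle median was 0.04, with 1 pair, and the pituitary median 0.03, with 2 pairs. The lowest pair in muscle was then SQLE and DHCR7 (−0.73), and HMGCS1 and SQLE were still the most tightly joined pair in muscle (0.701) and pituitary (0.764). These correlations share libraries and their depth and are given as a description.

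**Figure D4:**
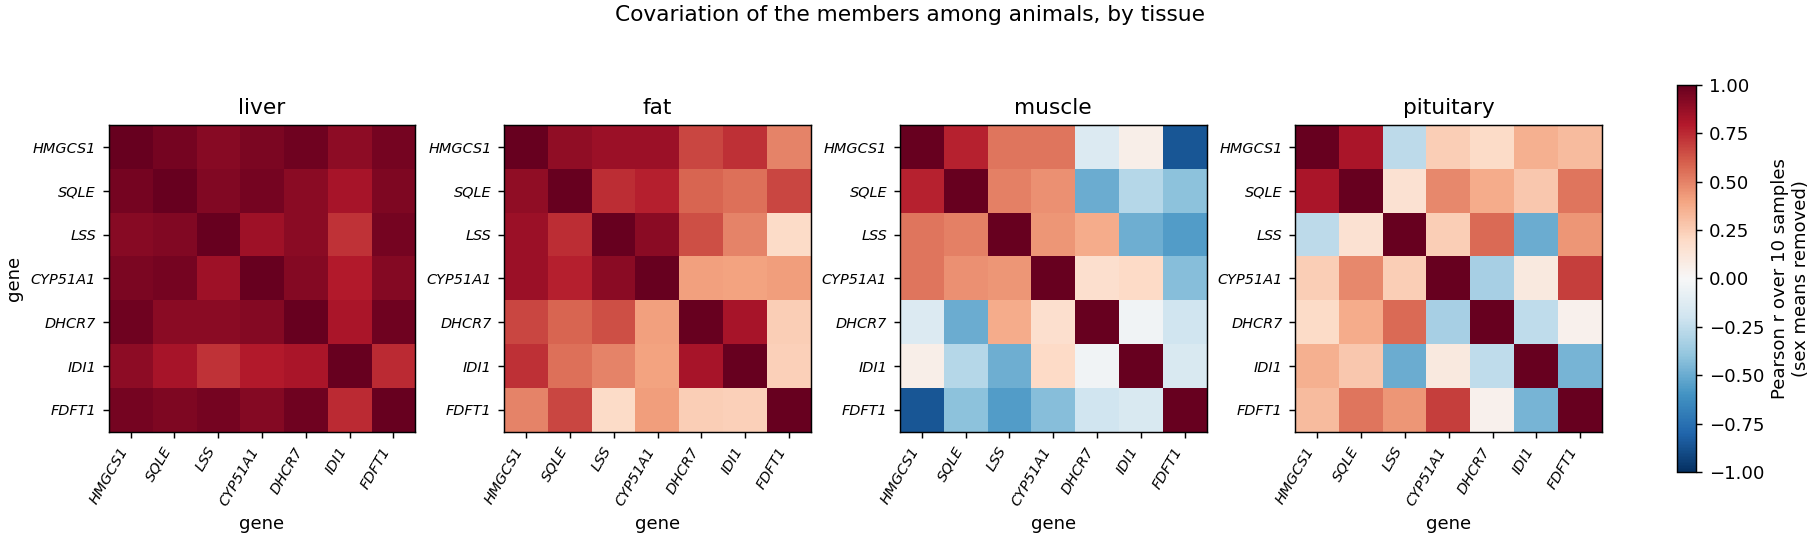
Pearson r between each pair of the 7 genes over the 10 samples of a tissue, on log2(CPM + 1) with the mean of each sex removed; red is positive and blue negative. In liver all pairs are positive (0.719 to 0.976), in fat less so (0.189 to 0.899), and in muscle and pituitary the signs are mixed, down to −0.85 for HMGCS1 and FDFT1 in muscle.

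The genes whose pattern over the 40 libraries was most like that of the 7 were ranked, as a description with no test. Likeness was the Pearson r between the mean of the 7 genes' standardized residuals and the residuals of each of 10939 other genes with a mean of at least 1 CPM. NSDHL (0.919) and MSMO1 (0.896) led, followed by ACSS2 (0.862), which makes acetyl-CoA from acetate, FDPS (0.800) and SCD (0.799), the stearoyl-CoA desaturase. SC5DL, a sterol desaturase, had 0.767, CS, citrate synthase, 0.761, RNF125, a ubiquitin ligase, 0.735 and INSIG1 0.729. The 10 leading genes all stayed among the first 10 without the library labelled as bull 3's liver, but only 5 of them without both high livers, when SCD fell to rank 148 (r = 0.489) and SC5DL to rank 212 (r = 0.460). Among the members themselves, HMGCS1 followed the mean of the other 6 most closely (0.955, rank 1) and IDI1 least (0.624, rank 33). Without both livers HMGCS1 was still at rank 1 (0.892), while IDI1 fell to rank 633 (0.411) and FDFT1 to rank 499 (0.405).

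Whether the genes differ between cows and bulls was asked in each tissue (the model of the study called M1, sex alone) and over all tissues (M2, sex and tissue), with the likelihood ratio test of edgeR. None of the 7 genes passed an adjusted p of 0.05 in any tissue, while 0.175% of all genes did so for liver, 0.114% for fat, 0.517% for muscle and 0.745% for pituitary. None passed over all tissues (1.69% of all genes) or in the test of whether the sex difference varied between tissues (0.335%). No member had an unadjusted p under 0.05 in any of these tests, and edgeR's quasi-likelihood test and, within tissues, DESeq2 also called 0 of 7. The quasi-likelihood test called 0.0076% of all genes in liver, 0.023% in fat and 0.586% in M2. DESeq2 called 0.152% in liver and 0.228% in fat. With so few genes called, these counts of 0 of 7 add little.

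In liver all 7 genes were higher in the libraries labelled as bulls, by 0.22 to 0.71 on the log2 scale, with adjusted p-values of 0.922 to 1 (edgeR). The largest was SQLE, 0.71 ± 0.77 (95% interval −0.80 to 2.23), and the interval of HMGCS1 (0.53 ± 0.86) ran from −1.16 to 2.22. Such intervals hold more than 4-fold differences in favour of bulls, so that the data do not show equal levels. The size and direction depended mostly on 2 libraries, although LSS also turned, to −0.03, without cow 3. Without the library labelled as bull 3's liver, 2 of 7 genes remained higher in bulls, and HMGCS1 (−0.59 ± 0.80) and DHCR7 (−0.50 ± 0.60) had negative differences. Without cow 4, all 7 were higher in bulls, and HMGCS1 (2.53 ± 0.66, adjusted p = 0.0384) and SQLE (2.25 ± 0.62, adjusted p = 0.0496) passed by edgeR's likelihood ratio test, beside 1.42% of all genes. Without both, all 7 were higher in bulls by 0.30 to 1.63, with a median of 0.86. SQLE then stood at 1.63 ± 0.57 and HMGCS1 at 1.37 ± 0.48, 4 genes had an unadjusted p under 0.05 (9.47% of all genes did), and the lowest adjusted p was 0.181 (edgeR).

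**Figure D5:**
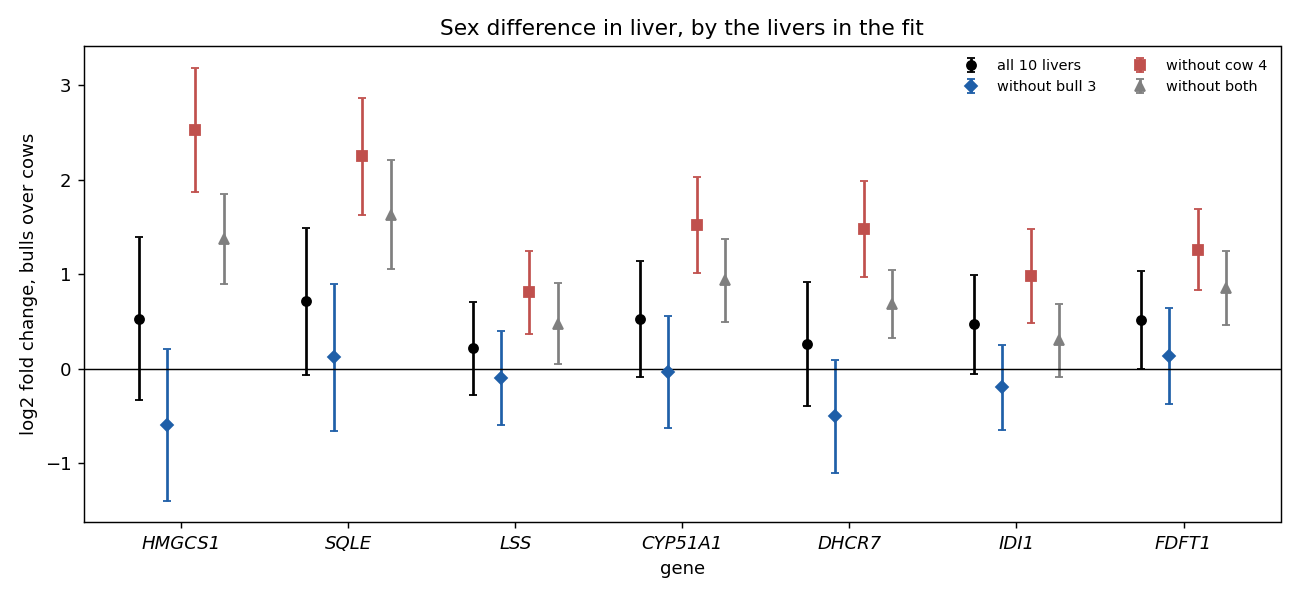
Log2 fold change of bulls over cows in liver for the 7 genes (edgeR, bars are standard errors) with all 10 livers, without the library labelled bull 3, without cow 4 and without both. With all livers the values lie between 0.22 and 0.71; without cow 4 they reach 2.53 for HMGCS1, and without bull 3 that gene is at −0.59.

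In fat 4 of 7 genes were higher in bulls and 3 lower, from −0.89 ± 0.69 for LSS to 0.67 ± 0.48 for IDI1. Without cow 4 all 7 were higher in bulls, by a median of 0.76, and none passed (lowest adjusted p = 0.721, for SQLE at 0.90 ± 0.37, edgeR). In muscle the differences ran from −0.49 ± 0.38 for IDI1 to 0.64 ± 0.37 for CYP51A1. In pituitary they ran from −0.08 ± 0.21 for IDI1 to 0.33 ± 0.24 for LSS, the narrowest range of the 4 tissues. Over all tissues the largest was CYP51A1, 0.39 ± 0.25 (adjusted p = 0.43, edgeR). Without cow 4, SQLE (0.85, adjusted p = 0.0345) and CYP51A1 (0.80, adjusted p = 0.0227) passed in M2 by edgeR, beside 5.22% of all genes. That fit kept the library labelled as bull 3's liver among the bulls. Without both high livers, but with cow 4's other tissues, M2 called 0 of 7 (lowest adjusted p = 0.227, edgeR), beside 1.98% of all genes. M2 treats the 4 tissues of 1 animal as independent. A voom fit with the animal as a random block called 0 of 7, both with all animals (lowest adjusted p = 0.554) and without cow 4 (lowest adjusted p = 0.117, for CYP51A1 at 0.88). It called only 0.061% of all genes with all animals and 0.502% without cow 4. Without cow 4, 4 of 7 genes had an unadjusted p under 0.05 in the voom fit, beside 14.2% of all genes.

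Of the 31 other pathway genes read in the 4 lists, 2 passed between the sexes within a tissue by edgeR's likelihood ratio test. These were CYP7A1 in liver and ABCG1 in muscle, where 0.175% and 0.517% of all genes passed. CYP7A1, the rate-limiting enzyme of bile acid synthesis, had 409, 498, 436, 70.2 and 52.4 CPM in the cows' livers and 13.2, 22.0, 82.7, 10.9 and 29.5 CPM in the livers labelled as bulls. The library labelled bull 3 was the only one of the bulls above any cow. The log2 difference was −3.14 ± 0.62 (adjusted p = 0.00448, edgeR's likelihood ratio test), and it passed in 16 of 17 fits (adjusted p from 9.93e-09 to 0.334). The exception was edgeR's quasi-likelihood test, at 0.334, which called 0.0076% of all genes in liver. The fits share libraries, and most repeat the likelihood ratio test with 1 animal left out, so they are not independent of each other. ABCG1, a cholesterol exporter, was lower in the muscle of bulls (1.32 to 4.52 CPM) than of cows (7.11 to 32.9 CPM), with no overlap, by a log2 difference of −2.39 ± 0.46 (adjusted p = 0.000479, edgeR's likelihood ratio test). It passed in 15 of 16 fits (adjusted p from 6.08e-05 to 0.0914), which share libraries in the same way, the exception again being the quasi-likelihood test. In M2 both passed by the likelihood ratio test of edgeR (adjusted p = 0.000635 for CYP7A1 and 0.0359 for ABCG1), but neither did in the voom fit with the animal as a random block (0.0861 and 0.484), nor ABCG1 by the quasi-likelihood test (0.0817). Of all genes, 0.061% passed in that voom fit and 0.586% by the quasi-likelihood test. No gene of the other 13 enzymes or of SREBP control passed in any tissue with all animals. Without cow 4, INSIG1 (1.97 ± 0.38, adjusted p = 0.000829) and ABCA1, a sterol exporter (1.30 ± 0.31, adjusted p = 0.00965), were higher in the livers labelled as bulls by edgeR's likelihood ratio test, beside 1.42% of all genes called. That fit kept the library labelled bull 3 among the bulls. INSIG1 and ABCA1 also passed without both high livers (1.82 ± 0.40 and 1.23 ± 0.33), beside 1.17% of all genes.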

How the data were processed

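RNA was measured by poly-A RNA-seq (TruSeq libraries, paired-end reads). The authors trimmed reads with Trimmomatic, aligned them with TopHat2 and Bowtie2 to UCSC bosTau7, and counted uniquely mapped reads per gene with HTSeq. The deposited values are raw counts per gene, 1 table per library. The counting mode and strand setting were not given in the sources used here.

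Rows without a gene name (0.114% to 2.69% of gene reads) were left out. Genes with a read in any library were fitted with edgeR 4.0.16 (R 4.3.3) and TMM factors. M1 and M2 used the likelihood ratio test, as in the study. Tissue contrasts used the quasi-likelihood test with the animal, given by the ear tag in the labels, as a fixed block. P-values were Benjamini-Hochberg adjusted over all genes tested (threshold 0.05, prior count 0.125), and 95% intervals are 1.96 standard errors wide on each side. Alternatives were DESeq2 1.42.0, voom (limma 3.58.1), RLE factors, library sizes alone, filterByExpr, and leaving out each animal or doubted libraries, of which the voom fit without cow 4 and, for M2, tissue contrasts and likeness, the fits without both high livers were added after seeing the data. The M1 liver fit without both high livers also leaves out cow 4's liver, which was singled out after its values were seen. Fits were tested on simulated counts.

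Every member is named; among other genes, the 10 most like the members and those of 4 lists. The members and lists were chosen with earlier results of these data known. One of the 10 leading genes and some genes of the pathway and of the marker lists are not reported here. INSIG2, STARD4, CYP7B1 and ADIPOQ were not analysed here.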

Additional observations from a re-analysis of the deposited data

Results flagged for a closer look

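In each group of 5 (a gene, a tissue and a sex), the highest and lowest animals were compared with the gap that Dixon's test allows (0.71 of the range). For normally distributed values, chance gives about 1 in 20. Levels were compared as CPM, which can be skewed to high values, so that rate may not hold here. Of 56 groups, 12 held an animal farther out. All 12 were high values: 7 came from liver, 4 from fat, 1 from pituitary and 0 from muscle, and 10 were of cow 4.

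In the liver of cow 4 these were HMGCS1 (2708 CPM), SQLE (656.1 CPM), CYP51A1 (646.8 CPM), DHCR7 (459.1 CPM) and IDI1 (567.2 CPM). In the fat of cow 4 they were HMGCS1 (434.8 CPM), SQLE (111.6 CPM), LSS (235 CPM) and FDFT1 (138.7 CPM). SQLE was also far out in the pituitary of cow 4 (63.31 CPM). In the library labelled as the liver of bull 3 they were HMGCS1 (3039 CPM) and DHCR7 (438.7 CPM). The genes move together, so the flags are not independent of each other.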

How the results depend on the processing

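The number of members called between tissues stayed within 1.5 times that reported in every alternative run. The largest shifts came with library sizes alone, where it was 4 between liver and fat and 6 between muscle and pituitary, against 6 and 4. That scaling moved the median of all genes by −0.72 and −0.93 in these contrasts. No share of all genes called stands beside these counts, so a change in the members cannot be told apart from that shift. The fit with no replicate block for the animal gave the same counts of members called as the blocked fit (6, 7, 7, 6, 4 and 4). Of 714 values of single genes between tissues, 669 kept direction and side of the threshold, 18 newly passed, 16 no longer passed and 11 turned. For sex (liver, fat and M2), 310 of 343 kept both, 4 newly passed and 29 turned. The cause was not tested.

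Leaving out 1 animal gave 0 to 2 members called by sex in liver and 0 to 2 in M2, the 2 both without cow 4. In liver the log2 difference then ran from −0.59 to 2.53 for HMGCS1, −0.10 to 0.81 for LSS, −0.0321 to 1.52 for CYP51A1, −0.50 to 1.48 for DHCR7 and −0.19 to 0.98 for IDI1. In fat it ran from −0.46 to 0.75 for HMGCS1, −0.84 to 0.90 for SQLE and −1.235 to 0.19 for LSS. In M2 it ran from −0.12 to 0.85 for HMGCS1, −0.18 to 0.85 for SQLE, −0.36 to 0.37 for LSS, −0.0192 to 0.60 for DHCR7 and −0.0115 to 0.31 for IDI1. For fat minus pituitary DHCR7 ran from −0.23 to 0.0229, and for muscle minus pituitary HMGCS1 ran from −0.0396 to 0.16.

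Library sizes alone moved the median of all genes by −0.14 in M2, −0.72 for liver minus fat, 0.80 for fat minus muscle and −0.93 for muscle minus pituitary. With them, M2 gave −0.0043 for HMGCS1 and −0.0933 for SQLE, liver minus fat gave −0.11 for LSS, fat minus muscle gave 0.27 for FDFT1, and muscle minus pituitary gave −0.85 for HMGCS1 and −0.49 for IDI1. Without the library labelled as bull 3's liver, M2 gave −0.16 for HMGCS1, −0.14 for SQLE and −0.0054 for IDI1. The voom fit gave 0.0515 for LSS in M2, and 0.4161 without cow 4. HMGCS1 for muscle minus pituitary was −0.0171 with DESeq2, −0.0168 with RLE factors and −0.0416 with filterByExpr.

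With 5 animals per sex, 1 animal could change the direction of a sex difference. The lowest level of a member in any library was 3.17 CPM, and 3 reads make at most 0.793 CPM in any library.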
